A study of Mus musculus with 2 samples.

Results

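The collagen genes of cultured mouse oligodendrocyte lineage cells were described in 2 RNA sequencing libraries, 1 from control cells and 1 from Seh1cKO cells. Members were all genes whose deposited symbol has the form Col, a number, the letter a and a number. The rule found 44 of the 18651 genes listed in either library, 42 of them in control and all 44 in Seh1cKO. The rule used symbols and no values, though it was set with earlier results of these data known.

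Both cultures started from precursor cells of C57BL/6 mouse cortex at postnatal day 4 to 7, purified on anti-GalC and then anti-O4 plates. Cells were grown with PDGF-AA, CNTF, bFGF and NT3, and differentiation was begun with 60 nM triiodothyronine (T3) and with removal of PDGF-AA, bFGF and NT3. The immature oligodendrocytes are labelled as day 2 of T3. The control genotype is labelled wild type and the Seh1cKO genotype mutant; Seh1l encodes Seh1, a subunit of the nuclear pore scaffold. Not given in the sources used here were the Cre driver, the deleted exons, the number of animals and their sex. With 1 library per group there was no replicate and no test of genotype, and intervals in brackets are exact 95% Clopper-Pearson intervals that cover counting error only.

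Collagens are secreted or membrane proteins in which 3 chains wind into a triple helix built of repeats that begin with glycine. Fibrillar collagens form the banded fibres of connective tissue, with a few types that set fibre width. Type IV collagen forms the sheet of basement membranes, which in brain surround vessels and line the pia. Type VI forms beaded filaments, FACIT collagens (fibril-associated collagens with interrupted triple helices) sit on fibre surfaces, and transmembrane collagens span the cell membrane with a shed outer part. In the nervous system these proteins are mostly made by meningeal fibroblasts, vessel cells and some glia.

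The libraries held 20730083 control reads and 20599564 Seh1cKO reads. Seh1l was at 32.1 CPM (counts per 1000000 reads) in control against 18.5 CPM in Seh1cKO, 1.73-fold lower (1.53 to 1.97). The lineage markers Olig1 (864 and 873 CPM) and Olig2 (496 and 648 CPM) were present in both, and so was the astrocyte marker Gfap (5200.1 and 2214 CPM). The libraries also stood apart in sex-linked genes, with Xist at 0.868 and 341 CPM, and Ddx3y at 1053 and 3 reads, so genotype and sex-linked expression cannot be told apart. Among the collagens, Col4a5 and Col4a6 lie on chromosome X.

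Collagen transcripts were more abundant in Seh1cKO as a whole, and the members went both ways. All 44 genes summed to 1794 CPM in the control culture against 2624 CPM in the Seh1cKO culture, a ratio of 1.46 (1.44 to 1.48). Measured genes were those whose mean over the libraries reached 1 CPM, which left 34 members. Of these, 15 were at least 2-fold higher on the log2(CPM + 1) scale, beside 2.86% of all 13758 measured genes. The count at least 2-fold lower was 3, beside 1.29%, so that 18 passed 2-fold either way, beside 4.16%, and 16 were within 2-fold. The higher value, of any size, was in Seh1cKO for 24 of 34, beside 60.9% of all measured genes. Col4a4, Col13a1 and Col19a1 were under 1 CPM in control and reached the floor through Seh1cKO, so their direction followed from the floor. All 3 are among the 24, and Col13a1 and Col19a1 are among the 15. The median log2 ratio of the 34 members was 0.72, beside 0.07 for all measured genes. With the 10 low members kept, the median over all 44 was 0.37. The counts past 2-fold were again 15 and 3, which was fixed in advance. With at most 0.534 CPM in either library, and 1 CPM added, none of the 10 could pass 2-fold. On the deposited FPKM scale (reads per kilobase of transcript and 1000000 reads) with a pseudocount of 1 FPKM, the counts were 7 higher and 2 lower past 2-fold, beside 1.48% and 1.08% of all measured genes. Those no longer past it were Col5a1, Col5a2, Col6a2, Col6a3, Col7a1, Col13a1, Col15a1, Col19a1 and Col9a1. With a pseudocount of 5 CPM, Col6a2, Col6a3, Col13a1, Col15a1, Col19a1 and Col9a1 were within 2-fold. Just inside the threshold stood Col5a1 (log2 ratio 1.08) and Col9a1 (-1.08), and just outside Col6a1 (0.82) and Col9a2 (-0.83). For 32 of the 34 the counting interval of the ratio left out equality, 23 above it and 9 below. The share over all measured genes is not given here, so this count does not set collagens apart. Since the RNA is from bulk cultures, more cells of a type and more RNA per cell cannot be told apart.

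**Figure D1:**
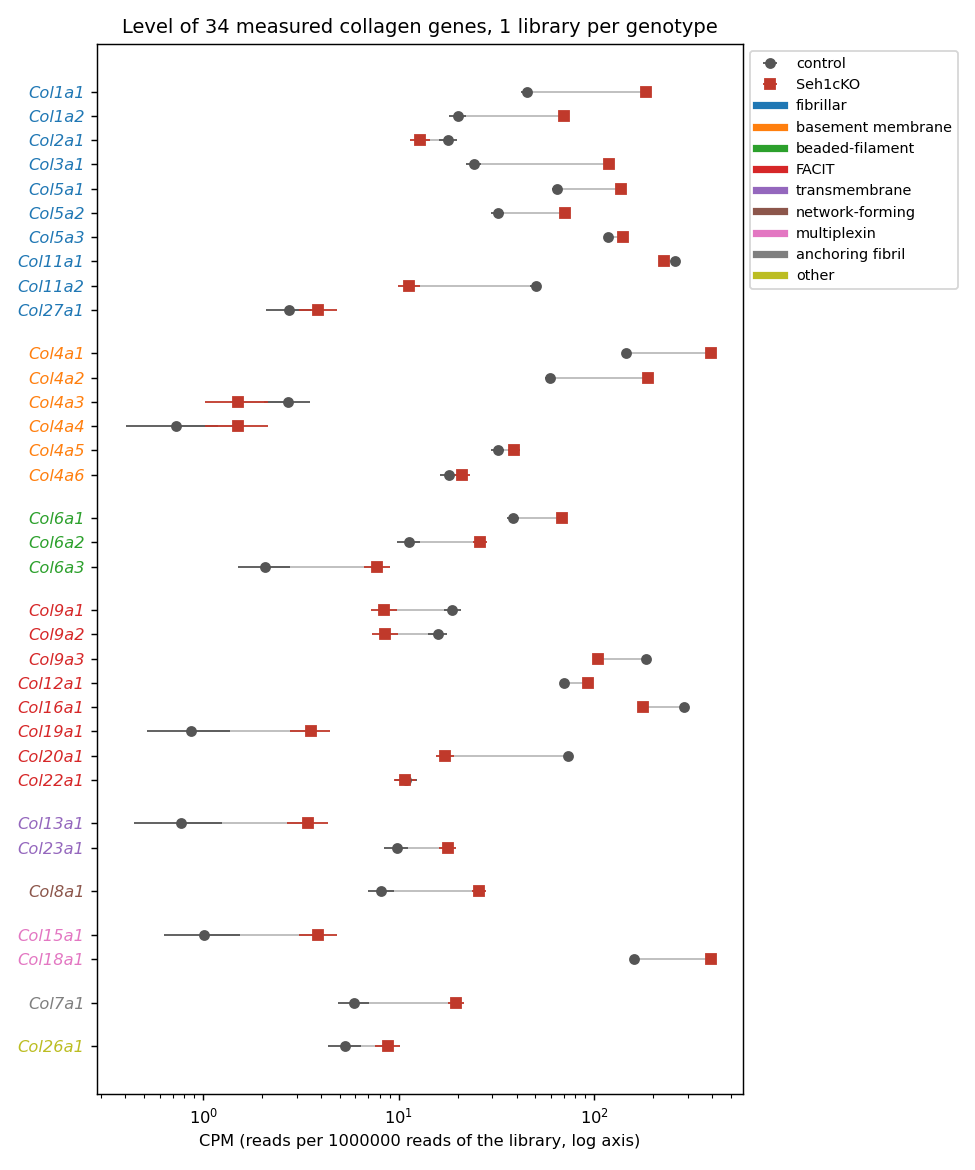
Level of each of the 34 measured collagen genes in CPM (log axis) in the control library (circles) and the Seh1cKO library (squares), grouped and coloured by class. Horizontal bars are exact 95% Poisson intervals for counting error, and grey lines join the 2 values of a gene. Types I, III and IV (Col4a1, Col4a2) and Col18a1 lie further right in Seh1cKO, and Col11a2, Col20a1 and the type IX genes lie further right in control.

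The fibrillar class was divided (positions are RefSeq gene extents on GRCm38.p6). Of its 10 measured genes, 5 were at least 2-fold higher, 1 was at least 2-fold lower and 4 were within 2-fold, and the class median was 0.73. Col3a1 (chromosome 1, 45311538 to 45349706), which encodes the single chain of type III collagen of soft, distensible tissue, was at 24.1 CPM in the control culture against 119 CPM in the Seh1cKO culture. That made it 4.93-fold higher (4.47 to 5.44), the furthest of all measured collagens. Col1a1 (chromosome 11, 94936224 to 94953042), the main chain of type I collagen of bone, skin and scars, was at 45.2 CPM in the control culture against 184 CPM in the Seh1cKO culture, 4.08-fold higher (3.80 to 4.39). Its partner chain Col1a2 (chromosome 6, 4505618 to 4541543) was at 20.0 CPM in the control culture against 69.7 CPM in the Seh1cKO culture, 3.48-fold higher (3.12 to 3.89). In each of these genes the counting intervals of the 2 libraries lie far apart.

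Type V collagen, which starts fibrils and limits their width, had its common chains higher as well. Col5a1 was at 64.3 CPM in the control culture against 137 CPM in the Seh1cKO culture, 2.13-fold higher (1.99 to 2.27). Col5a2 was at 32.2 CPM in the control culture against 70.7 CPM in the Seh1cKO culture, 2.20-fold higher (2.00 to 2.41). The third chain, Col5a3, differed least, at 118 CPM in the control culture against 139.6 CPM in the Seh1cKO culture, a ratio of 1.19 (1.12 to 1.25). Col27a1, a fibrillar gene of cartilage, was low in both at 2.75 and 3.88 CPM, and its ratio of 1.41 (0.993 to 2.02) included equality.

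Type II and type XI chains stood on the other side. Col11a2 (chromosome 17, 34038919 to 34066684), a chain of the type XI collagen that forms the core of cartilage fibrils, was at 50.1 CPM in the control culture against 11.3 CPM in the Seh1cKO culture. It was 4.45-fold lower (3.85 to 5.15), the furthest lower value among measured collagens. Its partner Col11a1 (chromosome 3, 114030479 to 114220756) was nearly level, at 259 CPM in the control culture against 228 CPM in the Seh1cKO culture, 1.13-fold lower (1.09 to 1.18). Col2a1, the principal fibre collagen of cartilage and the vitreous, was at 17.8 CPM in the control culture against 12.9 CPM in the Seh1cKO culture, 1.39-fold lower (1.18 to 1.63). Col9a1, Col9a2 and Col9a3, whose type IX product coats type II fibres, were lower too, as given with the FACIT class. Grouped after their values were seen, the 6 genes of types II, IX and XI summed to 545 CPM in the control culture against 374 CPM in the Seh1cKO culture, a ratio of 0.687 (0.667 to 0.707). All 6 had the lower value in Seh1cKO, 2 of them past 2-fold. The 6 genes of types I, III and V, grouped in the same way, summed to 303 CPM in the control culture against 719.7 CPM in the Seh1cKO culture, a ratio of 2.37 (2.30 to 2.44).

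The promoters of the fibrillar genes furthest apart, Col3a1 and Col11a2, are shown with that of the type I gene Col1a2, from RefSeq on GRCm38.p6 (mm10 is GRCm38). Each window runs from 250 bases before the start of transcription to 50 after it, on the strand of the gene. Some windows, here and further on, use an annotated start that lies inside the outermost extent of the gene (Col11a2, Col20a1, Col4a1, Col13a1 and Col6a3). Capitals mark matches to the CCAAT box (CCAAT), the GC box (GGGCGG), the TATA box (TATAAA) and a Sox-type motif (ACAAAG), on either strand; no motif contains another. Col1a2 lies at chr6:4505368-4505667, plus strand, Col3a1 at chr1:45311288-45311587, plus strand and Col11a2 at chr17:34038888-34039187, plus strand.
Col1a2: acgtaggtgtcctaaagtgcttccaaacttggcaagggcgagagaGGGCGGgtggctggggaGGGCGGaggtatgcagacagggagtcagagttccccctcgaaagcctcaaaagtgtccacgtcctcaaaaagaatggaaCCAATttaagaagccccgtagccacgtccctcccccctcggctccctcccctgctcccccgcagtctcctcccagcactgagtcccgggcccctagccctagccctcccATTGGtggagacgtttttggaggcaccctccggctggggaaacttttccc
Col3a1: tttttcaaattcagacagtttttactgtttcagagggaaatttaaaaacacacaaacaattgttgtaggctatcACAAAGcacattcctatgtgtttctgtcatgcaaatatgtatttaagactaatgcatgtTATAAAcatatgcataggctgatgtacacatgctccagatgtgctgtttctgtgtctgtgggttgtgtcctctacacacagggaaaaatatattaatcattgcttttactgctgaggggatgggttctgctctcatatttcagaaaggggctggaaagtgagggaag
Col11a2: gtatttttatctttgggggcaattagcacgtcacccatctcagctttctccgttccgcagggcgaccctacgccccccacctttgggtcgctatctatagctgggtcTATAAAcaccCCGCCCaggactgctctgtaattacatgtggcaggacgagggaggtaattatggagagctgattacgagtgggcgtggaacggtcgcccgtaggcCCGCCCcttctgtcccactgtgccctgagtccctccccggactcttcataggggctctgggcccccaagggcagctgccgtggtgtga

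In those letters, the Col1a2 window held 2 CCAAT boxes and 2 GC boxes, Col3a1 a TATA box and a Sox-type match, and Col11a2 a TATA box and 2 GC boxes. RefSeq windows were found for 35 of the 44 collagens (38 windows, since some genes have several starts). The CCAAT box was in 13 of 38 collagen windows (34.2%) and in 37.4% of all 32851 windows. The GC box was in 23 of 38 (60.5%) and in 35.7% of all. The TATA box was in 5 of 38 (13.2%), beside 13.6% of all. The Sox-type motif was in 5 of 38, beside 18.7% of all. These are matches of letters and not measured sites.

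The common chains of type IV collagen of basement membranes were higher. Its other chains were within 2-fold on the log2(CPM + 1) scale. Of 6 genes 2 were at least 2-fold higher and 4 within 2-fold, with a class median of 0.40. Col4a1 (chromosome 8, 11198423 to 11312889) was at 145 CPM in the control culture against 394 CPM in the Seh1cKO culture, 2.72-fold higher (2.61 to 2.84). Col4a2 (chromosome 8, 11312805 to 11449287) was at 59.4 CPM in the control culture against 187 CPM in the Seh1cKO culture, 3.15-fold higher (2.96 to 3.36). These chains form the trimer found in nearly all basement membranes, and the class summed to 258 CPM in the control culture against 644 CPM in the Seh1cKO culture. The X-linked chains were close to level, with Col4a5 at 32.2 CPM in the control culture against 38.9 CPM in the Seh1cKO culture, a ratio of 1.21 (1.09 to 1.34), and Col4a6 at 18.0 and 21.1 CPM, which is a ratio of 1.17 (1.02 to 1.35). Col4a3 and Col4a4, the chains of kidney glomerulus and lung, were near the floor at 2.70 and 1.50 CPM and 0.724 and 1.50 CPM, from 56 and 31 reads and from 15 and 31 reads. With no pseudocount Col4a3 was 1.80-fold lower (1.14 to 2.88) and Col4a4 was 2.08-fold higher (1.09 to 4.15). The class median ran from 0.19 on the FPKM scale and 0.21 with a pseudocount of 5 CPM to 0.99 without the X-linked members.

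The type IV genes lie in head-to-head pairs on opposite strands. The gene models of Col4a1 and Col4a2 overlap by 85 bases at their 5′ ends, those of Col4a4 and Col4a3 by 114 bases, and Col4a6 and Col4a5 are 1.27 kb apart. The members of a pair had log2 ratios of 1.44 and 1.64, of 0.54 and -0.56, and of 0.22 and 0.27. Both windows of the Col4a1 and Col4a2 pair are shown because both genes were at least 2-fold higher. The windows, Col4a1 at chr8:11312777-11313076, minus strand and Col4a2 at chr8:11312555-11312854, plus strand, share 78 bases on opposite strands, and capitals mark the same motifs.
Col4a1: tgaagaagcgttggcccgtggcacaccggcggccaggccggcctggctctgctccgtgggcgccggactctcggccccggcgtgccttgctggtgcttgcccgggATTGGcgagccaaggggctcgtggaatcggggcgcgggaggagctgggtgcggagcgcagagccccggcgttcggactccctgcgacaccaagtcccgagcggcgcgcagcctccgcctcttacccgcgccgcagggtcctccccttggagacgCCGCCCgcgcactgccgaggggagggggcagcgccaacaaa
Col4a2: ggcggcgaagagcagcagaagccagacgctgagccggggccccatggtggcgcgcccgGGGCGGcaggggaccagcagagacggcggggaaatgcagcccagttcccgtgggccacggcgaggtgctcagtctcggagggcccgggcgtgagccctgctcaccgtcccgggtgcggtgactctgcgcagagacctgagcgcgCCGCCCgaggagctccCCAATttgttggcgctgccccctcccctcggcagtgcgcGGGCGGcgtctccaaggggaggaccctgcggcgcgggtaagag

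Each of these windows held 1 CCAAT box, not the same one. The GC box of the Col4a1 window lies in the shared stretch and is also 1 of the 3 in the Col4a2 window. The libraries' strand setting was not stated, so reads in the overlap of paired genes cannot be assigned to either. Exon bases that lie under an exon of another gene on the other strand were 0.295% for Col4a1 and 0.982% for Col4a2 in GENCODE M21.

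Multiplexins, the anchoring fibril gene and the measured network-forming gene were each at least 2-fold higher. Col18a1 (chromosome 10, 77052178 to 77166530), a multiplexin whose end fragment is endostatin, was at 159 CPM in the control culture against 397 CPM in the Seh1cKO culture, 2.49-fold higher (2.40 to 2.60). Its relative Col15a1 was at 1.01 CPM in the control culture against 3.88 CPM in the Seh1cKO culture, 3.83-fold higher (2.35 to 6.53). Col7a1, which forms the anchoring fibrils that tie epithelia to the matrix below, was at 5.89 CPM in the control culture against 19.7 CPM in the Seh1cKO culture, 3.34-fold higher (2.72 to 4.12). Col8a1, a network-forming collagen of vessel walls and the cornea, was at 8.10 CPM in the control culture against 25.7 CPM in the Seh1cKO culture, 3.17-fold higher (2.66 to 3.80). With Col7a1, Col15a1 and Col18a1 added to the type IV genes, the median of the basement membrane class was 1.28.

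All 3 measured genes of beaded-filament type VI collagen had the higher value in Seh1cKO, and 2 passed 2-fold, with a median of 1.15. Col6a1 (chromosome 10, 76708792 to 76726044) was at 38.4 CPM in the control culture against 68.6 CPM in the Seh1cKO culture, 1.79-fold higher (1.64 to 1.95) and so within 2-fold. Its neighbour Col6a2 (chromosome 10, 76595756 to 76623630) was at 11.2 CPM in the control culture against 26.1 CPM in the Seh1cKO culture, 2.32-fold higher (1.99 to 2.72). Col6a3, the long chain of the filament, was at 2.07 CPM in the control culture against 7.77 CPM in the Seh1cKO culture, 3.74-fold higher (2.66 to 5.37). The other type VI chains, Col6a4, Col6a5 and Col6a6, had at most 6 reads in either library. With these low chains kept, the class median was 0.53.

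FACIT collagens were mostly lower in Seh1cKO, with a class median of -0.75. Of 8 measured genes 6 had the lower value, among them Col22a1, which was nearly level. At least 2-fold lower were 2 of the 8, beside 1.29% of all measured genes, and at least 2-fold higher was 1, beside 2.86%. Col20a1 (chromosome 2, 180983323 to 181017545), known as a gene of oligodendrocyte precursors, was at 73.8 CPM in the control culture against 17.2 CPM in the Seh1cKO culture, 4.29-fold lower (3.82 to 4.83). Among the type IX chains, Col9a1 was at 18.8 CPM in the control culture against 8.40 CPM in the Seh1cKO culture, 2.24-fold lower (1.87 to 2.70). Col9a2 was at 15.8 and 8.50 CPM and Col9a3 at 183 and 105 CPM, 1.86-fold lower (1.55 to 2.25) and 1.75-fold lower (1.66 to 1.85). Col16a1, a FACIT of skin and other tissues, was at 287 CPM in the control culture against 176 CPM in the Seh1cKO culture, 1.63-fold lower (1.56 to 1.69).

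The other 3 measured FACIT genes were level or higher. Col12a1, which binds type I fibres in tendon and muscle, was at 70.1 CPM in the control culture against 93.3 CPM in the Seh1cKO culture, a ratio of 1.33 (1.24 to 1.43). Col22a1 was level at 10.9 and 10.8 CPM, which is a ratio of 0.989 (0.818 to 1.19). Col19a1, a rare collagen of the basement membrane zone also made by some neurons, was at 0.868 CPM in the control culture against 3.54 CPM in the Seh1cKO culture from 18 and 73 reads, 4.08-fold higher (2.41 to 7.27). Col9a3 shares 6.07% of its exon bases with Tcfl5 on the other strand, and its reads there cannot be assigned to either gene. The same share for Col4a3 is 5.65%.

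**Figure D2:**
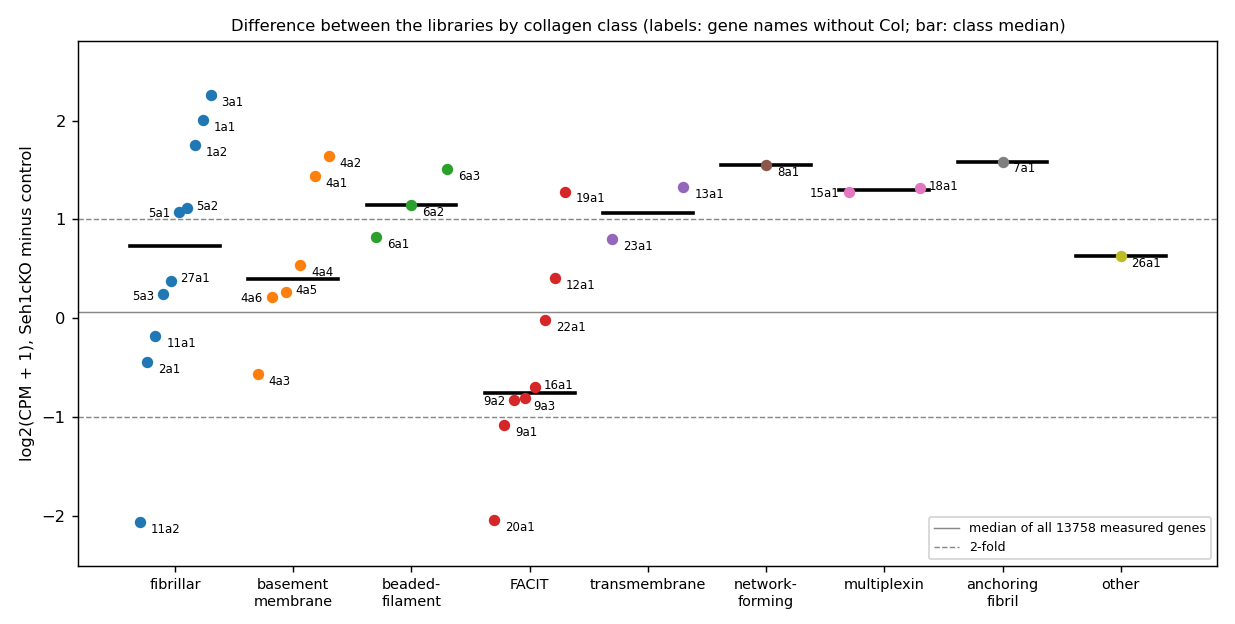
Difference in log2(CPM + 1), Seh1cKO minus control, for the 34 measured collagens by class, with 1 point per gene and a black bar at the class median. Dashed lines mark 2-fold and the solid line the median of all 13758 measured genes. FACIT is the class with its median below 0, and the fibrillar class runs from Col11a2 at -2.06 to Col3a1 at 2.25.

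The promoter of Col20a1 (chr2:180986285-180986584, plus strand) is shown as that of the FACIT gene with the largest difference. It held 1 Sox-type match and none of the other motifs. That of Col13a1 (chr10:61979059-61979358, minus strand), the transmembrane gene furthest from control, held 1 TATA box. That of Col6a3 (chr1:90843922-90844221, minus strand), the furthest type VI gene, held none of the motifs.
Col20a1: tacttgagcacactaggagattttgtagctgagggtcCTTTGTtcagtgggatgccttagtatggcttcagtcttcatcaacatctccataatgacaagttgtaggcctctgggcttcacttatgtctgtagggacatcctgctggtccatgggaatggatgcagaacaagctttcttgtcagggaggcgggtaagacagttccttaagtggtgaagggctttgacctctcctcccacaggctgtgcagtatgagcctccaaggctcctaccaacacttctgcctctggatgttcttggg
Col13a1: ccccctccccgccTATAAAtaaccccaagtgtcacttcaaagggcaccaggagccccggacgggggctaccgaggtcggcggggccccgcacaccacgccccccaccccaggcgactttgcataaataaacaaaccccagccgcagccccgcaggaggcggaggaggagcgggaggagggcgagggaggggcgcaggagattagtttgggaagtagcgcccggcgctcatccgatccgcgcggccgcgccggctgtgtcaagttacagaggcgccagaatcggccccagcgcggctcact
Col6a3: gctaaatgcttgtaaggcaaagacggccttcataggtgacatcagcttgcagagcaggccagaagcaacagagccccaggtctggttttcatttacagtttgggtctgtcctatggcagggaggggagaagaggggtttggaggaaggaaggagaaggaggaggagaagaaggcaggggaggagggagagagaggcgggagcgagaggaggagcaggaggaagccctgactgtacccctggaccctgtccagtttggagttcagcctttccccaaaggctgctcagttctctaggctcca

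Transmembrane collagens were low, and the 2 measured genes had the higher value in Seh1cKO. Col23a1, a shed membrane collagen, was at 9.74 CPM in the control culture against 17.8 CPM in the Seh1cKO culture, 1.82-fold higher (1.53 to 2.18). Col13a1, which sits at cell adhesion sites and at the neuromuscular junction, was at 0.772 CPM in the control culture against 3.45 CPM in the Seh1cKO culture from 16 and 71 reads, 4.47-fold higher (2.57 to 8.23). Of these, Col13a1 passed 2-fold. It was measured only through its level in Seh1cKO, so its direction followed from the floor. Col17a1, the hemidesmosome collagen of epithelia, and Col25a1, a neuronal collagen found in amyloid plaques, were under the floor, the latter with 7 and 4 reads. Col26a1, of no named class, was at 5.31 CPM in the control culture against 8.79 CPM in the Seh1cKO culture, a ratio of 1.66 (1.30 to 2.12).

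The 10 members under the floor reached at most 0.534 CPM, or 11 reads, in either library. They were Col24a1, Col6a4, Col6a5, Col6a6, Col14a1, Col17a1, Col25a1, Col8a2, Col10a1 and Col28a1. Of them 6 had more reads in Seh1cKO, 3 had fewer and Col6a6 had 1 in each. Col6a5 and Col28a1 had no read in control, where 3 reads, the number that a count of 0 allows, are 0.145 CPM, and 1 and 2 reads in Seh1cKO. For 9 of the 10 the counting interval of the ratio held equality, so a difference was not detectable at this depth. For Col17a1, with 2 and 11 reads, the ratio was 5.53 (1.21 to 51.4). Among the 34 measured genes, 3 (Col4a4, Col13a1 and Col19a1) were under 1 CPM in control and passed through their level in Seh1cKO. Their direction therefore followed from the floor.

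Compared per length, the order of the collagens differed between the libraries. Levels between genes were compared on the deposited FPKM scale. In control Col9a3 was first at 64.0 FPKM, followed by Col16a1 at 54.2, Col11a1 at 33.1, Col18a1 at 31.1 and Col4a1 at 21.5 FPKM. In Seh1cKO Col18a1 was first at 77.5 FPKM, followed by Col4a1 at 58.6, Col9a3 at 36.6, Col16a1 at 33.4 and Col1a1 at 30.6 FPKM. Col1a1 was 12th among collagens in control and 5th in Seh1cKO, and Col3a1 18th and 9th. Col20a1 was 7th in control and 18th in Seh1cKO, and Col11a2 10th and 26th. Neighbours in these orders have no replicate spread to be set against.

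FACIT genes held 46.1% of the summed collagen FPKM in control and 19.8% in Seh1cKO. Type IV genes held 11.5% and 21.4%, and multiplexins 9.32% and 17.3%. Fibrillar genes held 27.3% and 32.7%, and within them types I, III and V 14.0% and 25.2% of all collagen FPKM. Summed collagen FPKM was 335 in control and 452 in Seh1cKO. The largest single share was that of Col9a3 in control, at 19.1%, and that of Col18a1 in Seh1cKO, at 17.1%.

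**Figure D3:**
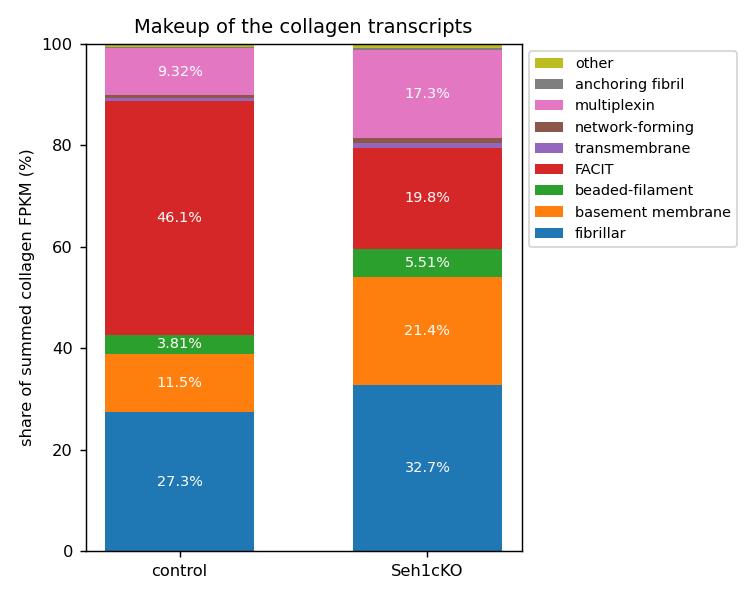
Share of the summed collagen FPKM (in percent) held by each collagen class in either library, as stacked bars that start at 0. The FACIT share is 46.1% in control and 19.8% in Seh1cKO, and the type IV share 11.5% and 21.4%.

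Chains that assemble into 1 trimer were then compared with each other inside each library, per base of transcript. The type I trimer holds 2 chains from Col1a1 and 1 from Col1a2, and the Col1a1 to Col1a2 ratio was 1.98 (1.76 to 2.23) in control and 2.32 (2.18 to 2.47) in Seh1cKO. The type IV trimer of Col4a1 and Col4a2 has the same makeup, and that ratio was 2.38 (2.22 to 2.54) in control and 2.05 (1.98 to 2.13) in Seh1cKO. Col4a5 to Col4a6 was 1.87 (1.65 to 2.13) in control and 1.91 (1.70 to 2.15) in Seh1cKO, and Col5a1 to Col5a2 was 1.57 (1.43 to 1.72) in control and 1.52 (1.43 to 1.62) in Seh1cKO. In the type I, type V and Col4a5 to Col4a6 pairs the counting intervals of both libraries overlapped. In the Col4a1 to Col4a2 pair they did not. Overlap of separate intervals does not show that a ratio was the same in both libraries.

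Other pairs were unequal in both libraries, except Col4a3 to Col4a4, whose interval held equality in Seh1cKO. Type VI collagen takes 1 chain each from Col6a1, Col6a2 and Col6a3, and Col6a3 to Col6a1 was 0.0239 (0.0171 to 0.0325) in control and 0.0491 (0.0414 to 0.0579) in Seh1cKO. Col6a1 to Col6a2 was 3.19 (2.76 to 3.71) in control and 2.46 (2.22 to 2.72) in Seh1cKO. In type IX collagen, also 1 chain each, Col9a1 to Col9a3 was 0.0868 (0.0780 to 0.0964) in control and 0.0649 (0.0553 to 0.0758) in Seh1cKO and Col9a2 to Col9a3 was 0.0895 in control and 0.0841 in Seh1cKO. Col9a3 transcripts therefore outnumbered both partners per length in each library. Col11a1 to Col11a2 was 4.26 (3.99 to 4.56) in control and 16.8 (14.7 to 19.2) in Seh1cKO, with intervals further apart than those of the other 10 pairs. Col4a3 to Col4a4 was 3.39 (1.89 to 6.45) in control and 0.907 (0.533 to 1.54) in Seh1cKO, from as few as 15 reads, and Col8a1 to Col8a2 was 20.3 (9.66 to 51.4) in control and 89.8 (38.3 to 278) in Seh1cKO, from as few as 5.

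**Figure D4:**
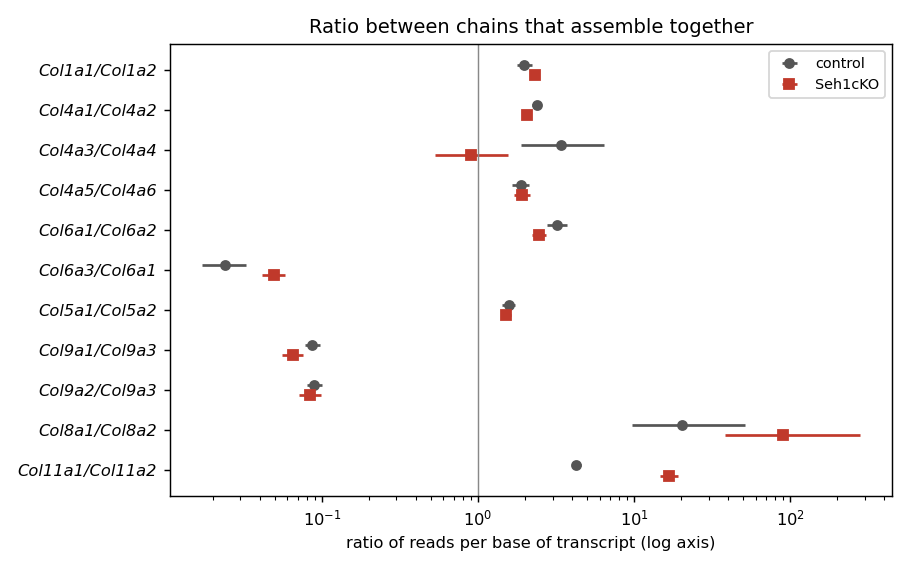
Ratio of reads per base of transcript (log axis) between collagen chains that assemble together, in control (circles) and Seh1cKO (squares), with exact 95% Clopper-Pearson intervals for counting error. The vertical line marks equality. Col11a1 to Col11a2 is 4.26 in control and 16.8 in Seh1cKO, and the type IX ratios lie far below equality in both.

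Genes that act on collagen were read from 6 lists. Counts past 2-fold in these and in the marker lists below stand beside 2.86% of all measured genes higher and 1.29% lower. The 20 genes of collagen folding and modification in the endoplasmic reticulum were all within 2-fold, with a median log2 ratio of 0.04, which turned to -0.033 after median of ratios scaling and to -0.0017 after upper quartile scaling. Serpinh1, the collagen chaperone HSP47, was at 303 and 316 CPM, and P4ha1, a prolyl hydroxylase, at 201 and 202 CPM. The largest differences there were Colgalt2, a collagen galactosyltransferase, at 15.8 and 8.84 CPM, Crtap, a part of the prolyl 3-hydroxylase complex, at 35.6 and 61.4 CPM, Fkbp10, a chaperone, at 58.7 and 90.7 CPM, and the lysyl hydroxylase Plod1 at 112 and 84.3 CPM.

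Genes that cut and cross-link procollagen outside the cell were higher in 5 of 10 cases past 2-fold and lower past 2-fold in none, with a median of 0.90. Adamts14, a protease that removes the amino-terminal propeptide, was at 7.43 CPM in the control culture against 38.1 CPM in the Seh1cKO culture, 5.12-fold higher (4.31 to 6.13). The lysyl oxidases Loxl2 and Lox, which cross-link fibres, were at 27.1 and 91.4 CPM and 9.70 and 33.0 CPM, 3.38-fold higher (3.07 to 3.72) and 3.40-fold higher (2.90 to 4.00). Pcolce, an enhancer of procollagen cleavage, was at 11.1 and 27.0 CPM. Bmp1, which removes the carboxy-terminal propeptide, was at 296 and 268 CPM, which is a ratio of 0.904 (0.872 to 0.938).

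Matrix proteins that bind collagen had 6 of 10 genes at least 2-fold higher, none lower past 2-fold and a median of 1.64. Tgfbi was at 4.63 and 31.2 CPM, the small proteoglycans Dcn, Lum and Bgn at 3.47 and 23.9 CPM, 2.60 and 16.5 CPM and 29.4 and 125 CPM. Basement membrane partners of type IV collagen had 7 of 15 genes at least 2-fold higher, none lower past 2-fold and a median of 0.98. Nid1, which links laminin to type IV collagen, was at 20.4 CPM in the control culture against 156 CPM in the Seh1cKO culture, 7.65-fold higher (6.91 to 8.48). The laminin chains Lamb1, Lamc3 and Lama1 were at 19.3 and 82.4 CPM, 0.579 and 4.51 CPM and 4.00 and 16.1 CPM. Lamc3, and Lamb3 at 0.434 and 3.20 CPM, were under 1 CPM in control and reached the floor through their level in Seh1cKO. The direction of both followed from the floor. Agrn (agrin) was at 284 and 225 CPM, which is a ratio of 0.791 (0.761 to 0.822).

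Collagen receptors were nearly level, with 1 of 9 measured genes at least 2-fold higher, none lower past 2-fold and a median of 0.14. The higher gene was Mrc2, which takes up collagen for breakdown, at 12.5 CPM in the control culture against 33.1 CPM in the Seh1cKO culture, 2.65-fold higher (2.29 to 3.07). The discoidin receptor Ddr1 was at 528 and 472 CPM and the integrin chain Itgb1 at 594 and 646 CPM. Itga11, an integrin chain for fibrillar collagen, was at 2.36 and 4.61 CPM, Adgrg6, a receptor of type IV collagen, at 16.8 and 26.1 CPM, and Itga1 at 13.9 and 17.0 CPM. Adgrg1 (Gpr56), a receptor for type III collagen, was at 221 and 214 CPM. Of 5 measured genes of collagen breakdown, 2 were at least 2-fold higher, with Mmp2 (gelatinase A) at 16.1 and 65.9 CPM, Ctsk (cathepsin K) at 1.45 and 5.87 CPM, Mmp16 at 8.06 and 15.3 CPM and Mmp14 at 146 and 172 CPM; the median was 0.85.

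Markers of cells that make much collagen were read beside these values. Fibroblast markers without collagens summed to 468 CPM in the control culture against 625 CPM in the Seh1cKO culture, with 6 of 12 measured genes at least 2-fold higher, none lower past 2-fold, none at 0 in either library and a median of 1.03. The genes of this list with the most reads were Thy1 (279 and 329 CPM), Fbln2 (31.5 and 67.4 CPM) and S100a4 (57.8 and 44.3 CPM). Thy1 held the largest part of both sums. The 2 measured genes with the lower value in Seh1cKO were S100a4 and Islr, the latter at 42.4 and 27.0 CPM. Pdgfrb, placed in this list and not among the mural cell markers, was at 8.10 and 28.3 CPM. Dcn and Lum stand in this list too. Mural cell markers summed to 164 CPM in the control culture against 234 CPM in the Seh1cKO culture, with all 6 measured genes within 2-fold and a median of 0.41, and Tagln was at 54.1 and 91.1 CPM, Notch3 at 54.8 and 48.5 CPM and Acta2 at 43.5 and 76.7 CPM. Endothelial markers summed to 32.5 CPM in the control culture against 66.6 CPM in the Seh1cKO culture, with 2 of 7 at least 2-fold higher and a median of 0.47; Cdh5 was at 1.01 and 13.8 CPM, Slco1c1 at 16.1 and 32.3 CPM and Kdr at 5.35 and 4.95 CPM, and Cldn5 had 0 reads in control and 1 in Seh1cKO. Epithelial and mesothelial markers summed to 11.9 CPM in the control culture against 220.1 CPM in the Seh1cKO culture. Of 8 measured genes 7 were at least 2-fold higher, with a median of 3.25. Krt8 was at 0.772 and 78.7 CPM, Krt18 at 1.21 and 63.9 CPM and Msln at 0.0965 and 24.9 CPM. Krt7, Krt8, Krt17, Krt19, Msln and Cdh1 were under 1 CPM in control. They reached the floor through their level in Seh1cKO, so their direction followed from the floor. The same holds for Esam of the endothelial list (0.772 and 4.61 CPM) and Tbx18 of the fibroblast list (0.965 and 5.78 CPM). Both are among the genes counted as at least 2-fold higher. Epcam was at 7.91 and 7.04 CPM, and Wt1 and Upk3b were at 0 in Seh1cKO. The part of such cells in the higher collagen values was not tested.

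Among the other marker lists, the medians of the oligodendrocyte lineage and of astrocytes were below 0, and those of microglia and neurons above 0. Oligodendrocyte lineage markers had 6 of 10 genes at least 2-fold lower and none higher past 2-fold, with a median of -1.52. The list summed to 3673 CPM in the control culture against 2332 CPM in the Seh1cKO culture. Its precursor genes Pdgfra and Cspg4 were at 156 and 277 CPM and 98.8 and 148 CPM. Astrocyte markers had 2 of 10 at least 2-fold lower, with a median of -0.30 and a sum of 12034 CPM in the control culture against 7802 CPM in the Seh1cKO culture; Atp1b2 was at 2873 and 2228 CPM and Slc1a3 at 1227 and 1072 CPM. The higher value was in Seh1cKO for 2 of the 10 astrocyte markers, Gja1 at 109 and 153 CPM and Aldh1l1 at 414 and 483 CPM. The lower values of Col20a1, Col11a2 and the type IX genes stand beside these, and the part of cell makeup in them was not tested. Microglia markers summed to 8.39 CPM in the control culture against 18.0 CPM in the Seh1cKO culture. Most reads were in Cd68 (3.67 and 8.30 CPM), Tmem119 (0.868 and 4.17 CPM) and P2ry12 (1.21 and 1.65 CPM). Of 4 measured genes 1, Tmem119, was at least 2-fold higher, and the median was 0.63. Tmem119 and Cx3cr1 (0.965 and 1.21 CPM) were under 1 CPM in control and reached the floor through Seh1cKO. Their direction followed from the floor. Neuron markers, with most reads in Map2 (279 and 270.1 CPM), Tubb3 (91.0 and 79.6 CPM) and Stmn2 (28.7 and 58.7 CPM), had 2 of 7 at least 2-fold higher, a median of 0.74 and a sum of 415 CPM in the control culture against 441 CPM in the Seh1cKO culture.

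**Figure D5:**
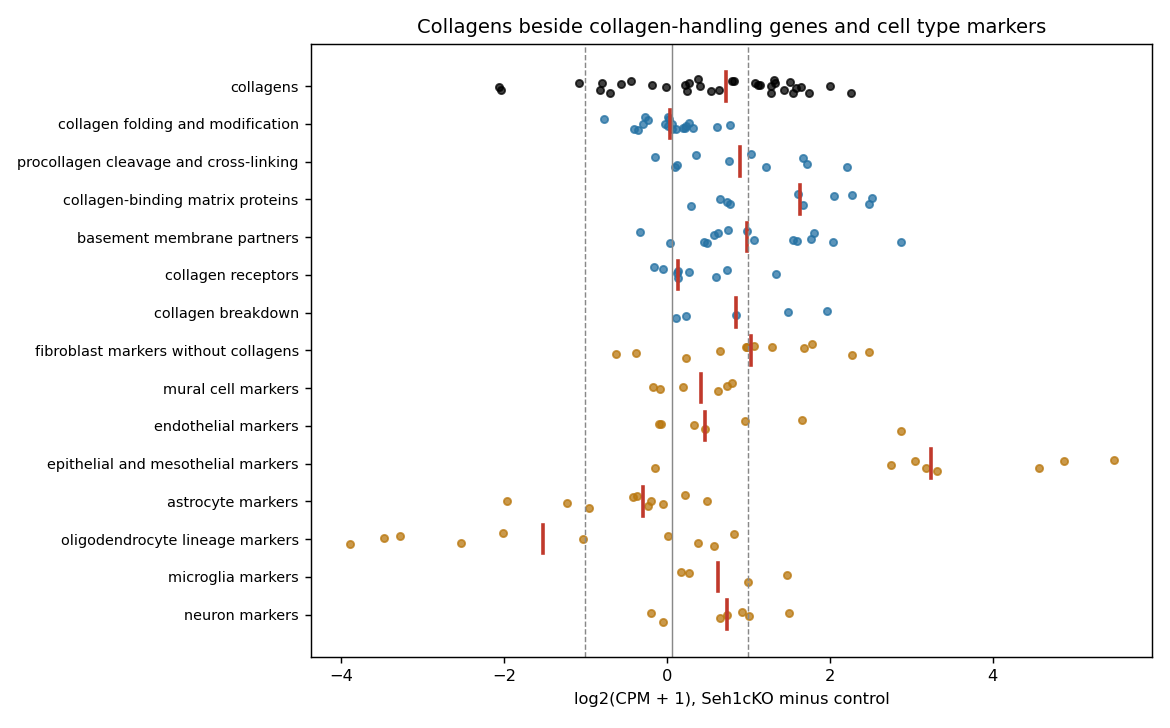
Difference in log2(CPM + 1), Seh1cKO minus control, for the measured collagens (black), for 6 lists of genes that act on collagen (blue) and for 8 lists of cell type markers (brown), with 1 point per gene and a red bar at each median. Dashed lines mark 2-fold and the solid line the median of all measured genes. The collagen median is 0.72, that of folding and modification genes 0.04 and that of oligodendrocyte lineage markers -1.52.

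The authors' deposited table of the comparison lists 18 collagens, 15 as higher and 3 as lower in Seh1cKO. These are the same 18 genes as those past 2-fold here, both being made from the same 2 libraries. Of the 18651 listed genes, 3.53% are higher and 1.27% lower in the authors' deposited table. Its log2 fold changes run from -2.16 for Col11a2 to 2.30 for Col3a1, and all 18 in the authors' deposited table equal the log2 ratio of the deposited FPKM, with no pseudocount, within 0.001. They are 2.04 for Col19a1 and 2.08 for Col13a1 in the authors' deposited table, beside 1.28 and 1.33 here on the log2(CPM + 1) scale.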

How the data were processed

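RNA was sequenced from 1 control and 1 Seh1cKO culture. The authors deposited an expected count, a transcript length and an FPKM per gene and library; HTSeq, StringTie and mm10 appear in the submitters' processing notes without roles, and the sources used here do not give the aligner or strand setting. Expected counts deposited by the authors were not whole for 29.3% and 29.5% of genes, among them 4 collagens, and were rounded. The authors' deposited comparison table holds log2 fold changes and p-values, by a test not given in the sources used here; 2 of its columns of per-sample values carry no sample's name and were not used.

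Genes missing from a library were set to 0. Counts were scaled to 1000000 reads (CPM), with a pseudocount of 1 CPM, a floor of 1 CPM on the mean and a 2-fold threshold; ratios of single genes carry no pseudocount. No molecular identifiers are stated, so intervals cover counting error only. Genes were matched by Entrez identifier to RefSeq on GRCm38.p6 (18611 of 18651, all 44 collagens); strand and exon overlap came from GENCODE M21. Older symbols were used where a listed symbol was not found. The deposited length of 5 collagens differed by over 1% between libraries. Classes, members and lists were chosen with earlier results of these data known. Named genes were Seh1l, all measured collagens, up to 4 genes per collagen-handling list by size of difference, and the 3 with most reads per marker list, of which 1 is not reported here. Promoters shown were those of the collagens furthest from control in the main classes and of the head-to-head pair past 2-fold. Xist, Ddx3y, Serpinh1, P4ha1, Bmp1, Agrn, Ddr1, Itgb1, Adgrg1, Pdgfrb, Pdgfra, Cspg4, Gja1, Aldh1l1, Cldn5, Wt1, Upk3b and the Col1a2 promoter were added after their values were seen. Krt7, Krt17, Krt19, Cdh1, Epcam, Lamb3, Islr, Esam, Tbx18 and Cx3cr1 were added in the same way. The neighbouring type IV pairs within 2-fold are described without sequence. Python 3.11.15 with scipy 1.17.1 was used, tested on simulated data. Alternatives were pseudocounts, scalings, FPKM, floors, leaving out chromosomes X and Y, and a wider basement membrane class.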

Additional observations from a re-analysis of the deposited data

How the results depend on the processing

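With 1 library per group no library could be left out, and 7 general alternatives, 1 without chromosomes X and Y and 1 with a wider basement membrane class were run. The count of collagens at least 2-fold higher was 15 and became 7 on the FPKM scale; it was 10 to 15 under the others. The count at least 2-fold lower was 2 or 3. Under all alternatives the collagen median was positive, from 0.37 to 0.85, and the FACIT median negative, from -0.83 to -0.66. The collagen total ratio was 1.39 after median of ratios scaling, 1.42 after upper quartile scaling and 1.35 on the FPKM scale; the cause of the last was not tested. The beaded-filament median was 0.78 on the FPKM scale and 0.53 with no floor. The transmembrane median, from 2 genes, was 1.44 and 0.59 with pseudocounts of 0.1 and 5 CPM, 0.67 on the FPKM scale and 0.64 with no floor. The fibrillar median was 0.38 to 1.08 and the basement membrane median 0.19 to 1.28. The median of folding and modification genes became -0.033 and -0.0017 under median of ratios and upper quartile scaling. None of the 34 measured collagens changed direction. Of the 18 members past 2-fold, 12 passed with a pseudocount of 5 CPM and 9 on the FPKM scale, where a fixed pseudocount weighs more on low genes. All 18 passed with either scaling. They also passed with a pseudocount of 0.1 CPM and with no floor, but these settings cannot remove a member already past 2-fold. Depth limits the 10 members under the floor. The difference between cultures or animals was not measured.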

Other observations

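Some collagen genes lie next to each other in the genome. Col9a1 and Col19a1 on chromosome 1 end 4.94 kb apart, tail to tail, and stood on opposite sides, at 18.8 and 8.40 CPM and at 0.868 and 3.54 CPM in control and Seh1cKO. Col3a1 and Col5a2, also on chromosome 1 and tail to tail at 24.6 kb, were both at least 2-fold higher. Col6a2 and Col6a1, on the same strand of chromosome 10 and 85.2 kb apart, were 2.32-fold and 1.79-fold higher. These positions are descriptions, with no comparison to other neighbouring genes.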
